A study of Homo sapiens with 30 samples.

Results

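The interferon-stimulated genes described here are 44 genes that interferon treatment is known to induce in most cells, chosen by their symbols out of the 21112 genes in the expression files. All 44 symbols were found. The study treated 4 human diffuse large B-cell lymphoma (DLBCL) cell lines with AZD8186, a small molecule that inhibits the PI3Kβ and PI3Kδ isoforms of phosphatidylinositol 3-kinase, and sequenced their RNA. OCI-Ly10 and TMD8 are lines of the activated B-cell-like (ABC) subtype, and HT and K422 are lines of the germinal center B-cell-like (GCB) subtype. AZD8186 was given at 0.5 µM, and the control was the solvent DMSO for the same time. OCI-Ly10, HT and K422 were harvested at 6, 12, 18 and 24 h and TMD8 at 6, 18 and 24 h, which gave 15 pairs of an AZD8186 library and a DMSO library, or 30 libraries in all.

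The sample descriptions name no interferon treatment. Each combination of line, treatment and time was 1 library, so the time points of a line stood in for replicates, and a p-value reflects no more than how far these libraries scatter, which may in part be technical. Each subtype was represented by 2 lines, and a difference between subtypes is therefore a difference between these lines. Per the study's methods, OCI-Ly10 and TMD8 were grown in Iscove's medium with fetal calf serum or human plasma. HT and K422 were grown in RPMI medium with fetal calf serum. Subtype and culture medium therefore cannot be told apart in any comparison of ABC with GCB lines. The lines are established cultures grown without other cells. Differences between cells within a culture were not measured, and fewer cells with a high level cannot be told apart from less RNA per cell.

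Type I interferons bind the receptor pair IFNAR1 and IFNAR2, whose kinases JAK1 and TYK2 phosphorylate STAT proteins. STAT2 joins IRF9 in the complex ISGF3, which binds the interferon-stimulated response element (ISRE) near the start of its target genes. The targets include the factors themselves, IRF7, cytosolic RNA sensors and proteins that block the replication of viruses.

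Promoter sequences were looked up because ISGF3 acts through a known element. In the RefSeq table for GRCh38.p14, 35 of the 44 genes had a promoter window of 250 bases before to 50 bases after the start site. The core of the ISRE, searched on both strands as GAAANNGAAA, was present in 22 of these 35 windows (62.9%) and in 3.57% of all 35116 windows of the same length. The STAT dimer element GAS, searched as TTCNNNGAA, which reads the same on both strands, was present in 9 of the 35 windows (25.7%) and in 7.66% of all windows. Stretches around the match nearest the start site are shown for 6 genes whose levels are described below, 5′ to 3′ on the strand of the gene, with the ISRE letters in capitals.

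ISG15, chr1:1013355-1013434, plus strand: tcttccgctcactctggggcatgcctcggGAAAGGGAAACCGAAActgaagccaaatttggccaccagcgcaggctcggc
ISG20, chr15:88638912-88638991, plus strand: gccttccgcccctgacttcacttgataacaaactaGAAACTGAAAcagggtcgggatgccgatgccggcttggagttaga
IFIT3, chr10:89327840-89327919, plus strand: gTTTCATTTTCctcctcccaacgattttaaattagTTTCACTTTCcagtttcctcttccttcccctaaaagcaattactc
SAMD9, chr7:93118071-93118150, minus strand: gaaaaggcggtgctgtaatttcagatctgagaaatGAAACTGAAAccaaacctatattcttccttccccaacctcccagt
IFI6, chr1:27672241-27672320, minus strand: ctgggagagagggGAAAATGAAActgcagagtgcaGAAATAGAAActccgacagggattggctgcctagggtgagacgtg
EPSTI1, chr13:42992247-42992326, minus strand: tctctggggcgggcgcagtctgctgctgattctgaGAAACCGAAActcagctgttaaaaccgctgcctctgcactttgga

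The match nearest the start lay 97 bases before it in ISG15, 59 in ISG20, 112 in IFIT3, 126 in SAMD9, 83 in IFI6 and 40 in EPSTI1. ISG15, IFIT3 and IFI6 held 2 matches within the stretch, overlapping in ISG15. In IFIT3 the letters lie on the opposite strand and read in reverse complement. The windows of STAT2, IRF9, DDX58, OAS1 and SAMD9L held no match to the ISRE letters. The windows of IRF7, OAS2, OASL, DHX58, USP18, IFIT2, IFITM2, MX2 and TRIM22 were not analysed here. A match is a string of letters and not a measured binding site.

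The libraries held between 15820230 and 23579029 expected counts each, with a median of 18591638. All 6 B-cell markers examined, among them MS4A1 and CD79A, had a mean of at least 1 TPM in every line. Among 7 markers of T and NK cells, CD3D, CD3E and CD3G exceeded 1 TPM in K422, where the summed level of the 7 was 162 to 184 TPM, while CD2 was at 0 in every K422 library. The myeloid marker CD33 was the only one of 6 above 1 TPM in HT, with a summed level of 38.5 to 58.3 TPM, and the summed levels of other marker lists stayed at or below 6.92 TPM. The part of these transcripts in the results was not tested.

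In DMSO, K422 held the most RNA of the interferon-stimulated genes, and several were nearly silent in HT. The summed TPM, a transcript level scaled by gene length and library size, of the 44 genes, averaged over the DMSO libraries, was 3568 in K422, 1197 in TMD8, 990.5 in OCI-Ly10 and 847.1 in HT. A few abundant genes made up most of this sum in K422, and the median member stood closer, at 12.8 TPM in K422, 9.15 in TMD8, 4.11 in OCI-Ly10 and 2.08 in HT. K422 had the highest mean of the 4 lines for 22 of the 44 genes and TMD8 for 17, where 38.0% and 17.2% of all genes tested were highest in these lines. HT had the lowest mean for 25 of the 44. HERC5, which attaches ISG15 to proteins, was at 0 or at most 0.06 TPM in DMSO, and alone among the 44 was too low to be tested in any comparison.

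**Figure D1:**
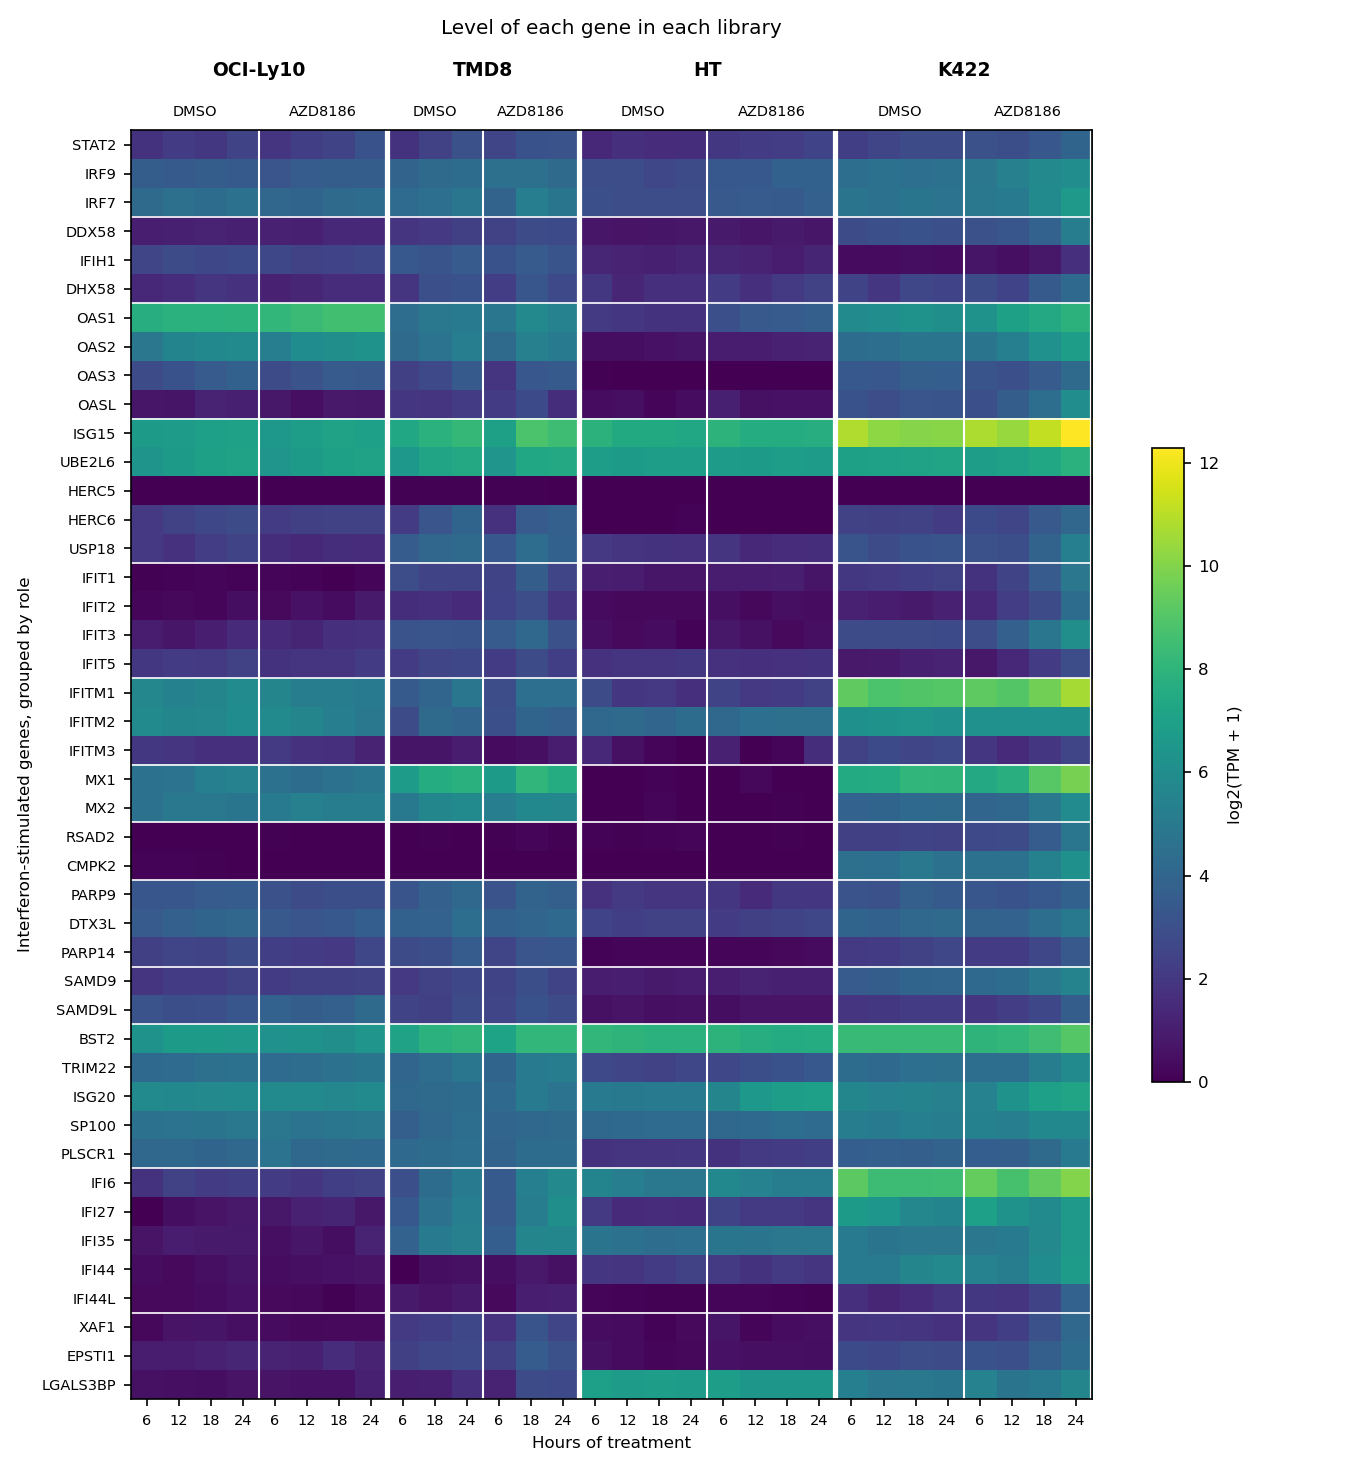
Level of each of the 44 genes (rows, grouped by role) in each of the 30 libraries (columns, by line, treatment and hours of treatment), as log2(TPM + 1) in color from dark (0) to yellow. ISG15, IFITM1, IFI6 and MX1 are brightest in K422, and MX1, MX2, OAS3, HERC6, RSAD2 and CMPK2 are near 0 in HT.

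The 3 most abundant members in DMSO differed from line to line. In K422 they were ISG15, a ubiquitin-like protein (1296 TPM ± 374, SD, n = 4), the membrane protein IFITM1, which restricts virus entry (524 TPM ± 80.8), and IFI6 (409 TPM ± 123). In OCI-Ly10 the highest was OAS1, which makes the 2-5A messenger in response to double-stranded RNA, at 224 TPM ± 16.7 (n = 4), ahead of ISG15 and of UBE2L6, the conjugating enzyme for ISG15. TMD8 was led by ISG15 at 227 TPM ± 66.2 (n = 3), the virus tether BST2 at 209 TPM ± 67.5 and the GTPase MX1 at 175 TPM ± 56.2. HT had BST2 at 252 TPM ± 23.9 (n = 4), ISG15 at 187 TPM ± 33.3 and the secreted glycoprotein LGALS3BP at 114 TPM ± 6.69.

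Fitted to the 15 DMSO libraries, 37 of 43 members tested were higher in K422 than in HT and 3 were lower (edgeR quasi-likelihood test, Benjamini-Hochberg adjusted p under 0.05). Of all 12596 genes tested, 34.1% were higher and 33.9% lower in that comparison. The median difference was 2.67 on the log2 scale for the members and 0.00 for all genes. The 3 members that were lower in K422 were LGALS3BP and 2 sensors or binders of viral RNA, IFIH1 (-2.20 ± 0.17, SE) and IFIT5 (-1.53 ± 0.13).

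MX1 was the member with the smallest p between K422 and HT. Its level in DMSO was 180.3, 187, 274 and 261 TPM in K422 at 6, 12, 18 and 24 h, against 0, 0.02, 0.1 and 0 TPM in HT, where the 4 libraries together held 4 counts. Its fitted log2 difference of 12.91 ± 0.17 rests on those 4 counts and depends on the prior count. Leaving out 1 DMSO library at a time gave 12.48 to 14.07, a wider span than the SE conveys. OAS1 (4.36 ± 0.10), OAS2 (5.56 ± 0.13) and SAMD9 (3.65 ± 0.09), a cytosolic protein that limits poxviruses, were also higher in K422, with adjusted p-values of 1.01e-16, 1.72e-16 and 4.41e-16.

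Between the ABC lines, 28 of 43 members were higher in TMD8 and 10 were lower, where 34.6% of all genes were higher and 34.7% lower. The IFIT and IFI genes leaned to TMD8, and the OAS and IFITM genes to OCI-Ly10. All 4 IFIT genes tested were higher in TMD8, and IFIT1, which binds RNA lacking a methylated cap, differed by 6.01 ± 0.29 on the log2 scale (adjusted p = 6.24e-12), with 3 to 9 counts per DMSO library of OCI-Ly10. MX1 was also higher in TMD8 (2.36 ± 0.08, adjusted p = 9.95e-14). Going the other way were OAS1 (-3.08 ± 0.09, adjusted p = 8.76e-15), the exonuclease ISG20 (-1.59 ± 0.08, adjusted p = 1.63e-11) and all 3 IFITM genes. IFITM2 and IFITM3 are near-identical in sequence, and the way their shared reads were divided makes their separate levels uncertain.

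Averaged over lines, 28 members were higher in the ABC lines than in the GCB lines and 9 were lower, and the shares of all genes were 42.4% and 38.6%. The 4 with the smallest p were MX1 (5.22 ± 0.11), OAS2 (3.75 ± 0.08) and OAS1 (2.84 ± 0.07), all higher in the ABC lines, and LGALS3BP, which was higher in the GCB lines (-5.82 ± 0.12). The first 3 of these were nearly silent or low in HT but abundant in K422, and the mean of the GCB lines lies between 2 distant values. LGALS3BP stood at 108 to 123 TPM in HT and 26.2 to 39.2 TPM in K422 but at 2.29 TPM or below in every DMSO library of OCI-Ly10 and TMD8.

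The level in solvent also moved with time in culture for a few members. Per hour of culture, 6 of 43 members rose and 0 fell by edgeR, where 2.90% of all genes rose and 4.33% fell. At an unadjusted p under 0.05 there were 11 higher and 3 lower members, and DESeq2 called 6 higher and 1 lower. The 6 were STAT2, OAS2, OAS3, MX1, PARP14 and IFI44, with slopes of 0.02 to 0.04 log2 units per hour. In TMD8 the summed TPM of the members in DMSO was 812 at 6 h, 1245 at 18 h and 1534 at 24 h, and in K422 it was 4372, 3242, 3301 and 3357 at 6, 12, 18 and 24 h. Without the 24 h DMSO library of OCI-Ly10 or of TMD8 the number that rose was 2 or 3, and without the 6 h library of TMD8 the number that fell was 3. Leaving out HT at 12 h, HT at 24 h or TMD8 at 18 h gave 1 that fell. The same DMSO libraries are the controls of the AZD8186 comparisons, so levels in DMSO and responses are not independent.

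Under AZD8186, some interferon-stimulated genes rose in each of the 4 lines and none fell past the test. In OCI-Ly10 and HT the shares that rose, 11.6% and 9.30% of members, were those of all genes, at 11.3% and 9.17%. In TMD8 10 members rose, and 1 without its 18 h pair. STAT2 and OAS1 rose in every line. By number of lines, 2 of 43 members rose in 4 lines, 1 in 3 lines, 9 in 2 lines, 25 in 1 line and 6 in none, and of all 12910 genes tested 0.991% rose in 4 lines, 3.66% in 3, 8.82% in 2, 19.9% in 1 and 66.6% in none. The 1 line was K422 for 23 of the 25, and TMD8 for IFI27 and LGALS3BP. Genes with enough counts in 1 group of line and treatment were kept for all lines. The 23 include CMPK2 and RSAD2, which were near 0 counts outside K422, and MX1 and HERC6, near 0 in HT. For these a rise in those other lines could hardly have been called. Whether lines differ from each other is tested further below.

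**Figure D2:**
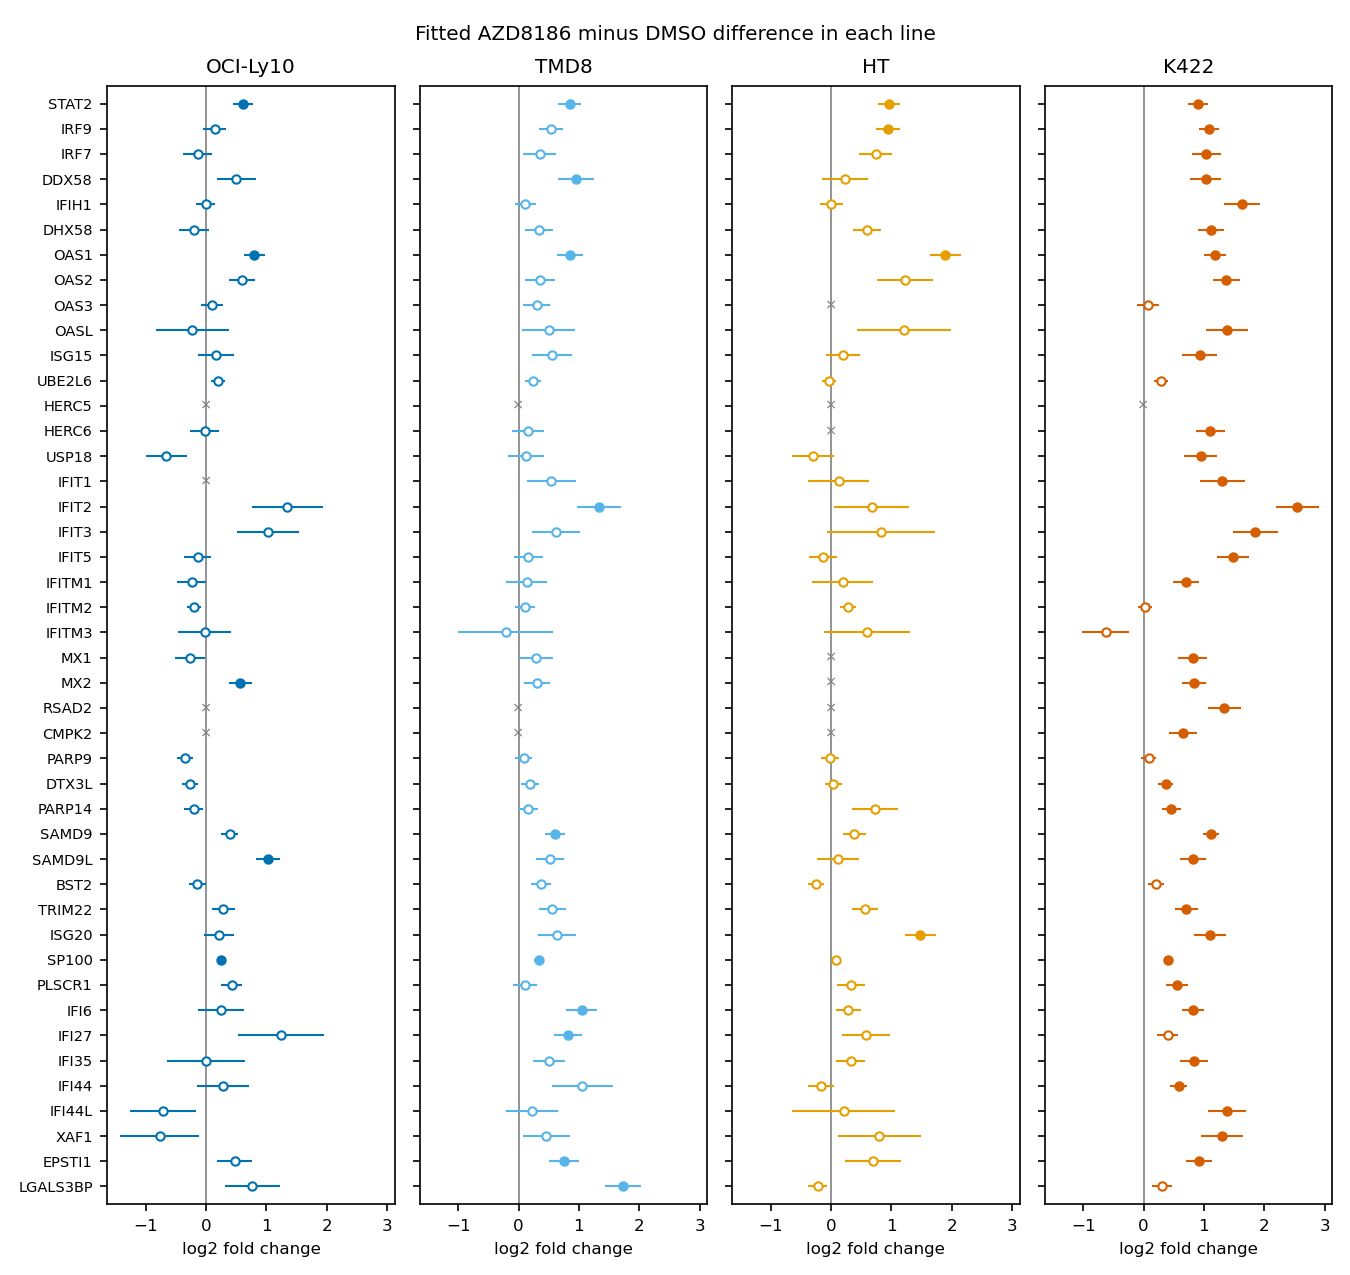
Fitted log2 fold change of AZD8186 over DMSO for each gene in each line, with bars of 1 SE and filled points where the adjusted p was under 0.05 (edgeR, pairs of libraries as a block). A cross marks a gene that was not tested or whose counts in that line were too low for a fitted value to be read. K422 has 35 filled points, TMD8 10, OCI-Ly10 5 and HT 4, all to the right of 0.

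In K422, 35 of 43 members rose and 0 fell by edgeR (37 higher and 0 lower at an unadjusted p under 0.05, and 36 and 0 by DESeq2). Of all genes tested, 22.7% rose and 20.2% fell in K422. The median fold change was 0.90 on the log2 scale for the members and 0.02 for all genes. In TMD8, 10 members rose and 0 fell (14 and 0 at an unadjusted p under 0.05, 10 and 0 by DESeq2), beside 9.26% and 7.63% of all genes, and the member median was 0.37. OCI-Ly10 had 5 that rose and 0 that fell (9 and 1 unadjusted, 6 and 0 by DESeq2), beside 11.3% and 11.5% of all genes, with a member median of 0.15. HT had 4 that rose and 0 that fell (9 and 0 unadjusted, 5 and 0 by DESeq2), beside 9.17% and 7.44% of all genes, with a member median of 0.28.

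The pairs of K422 at 24 h and of TMD8 at 18 h stood apart from the other pairs of their lines. The median log2 ratio of the 43 members was 0.09, 0.33, 0.998 and 1.94 at 6, 12, 18 and 24 h in K422, and 0.07, 0.95 and 0.24 at 6, 18 and 24 h in TMD8. In OCI-Ly10 the medians were 0.06, 0.16, 0.20 and 0.17, and in HT 0.08, 0.21, 0.30 and 0.41, while the median of all genes lay between 0.00 and 0.03 in every pair. All 43 members had a ratio above 0 in K422 at 24 h, and 35 of them exceeded 1, where 8.98% of all genes did so. Without the 24 h pair, 22 members rose in K422, and without the 18 and 24 h pairs 7 did, namely STAT2, IRF9, OAS1, OAS2, IFIT2, SAMD9 and SP100. Without the 18 h pair of TMD8, 1 member rose in that line.

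The fit shares 1 estimate of the spread among the lines, and each refit also repeated the filter, the scaling and the adjustment. Leaving out a pair also changed the counts of other lines, and which of these steps moved them was not tested. Without K422 at 24 h, 11 members rose and 3 fell in OCI-Ly10 and 8 rose in HT. OCI-Ly10 had 8 that rose without K422 at 6 h, 2 without its own 18 h pair and 2 without its own 24 h pair, and 1 that fell without HT at 12 h or TMD8 at 24 h.

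**Figure D3:**
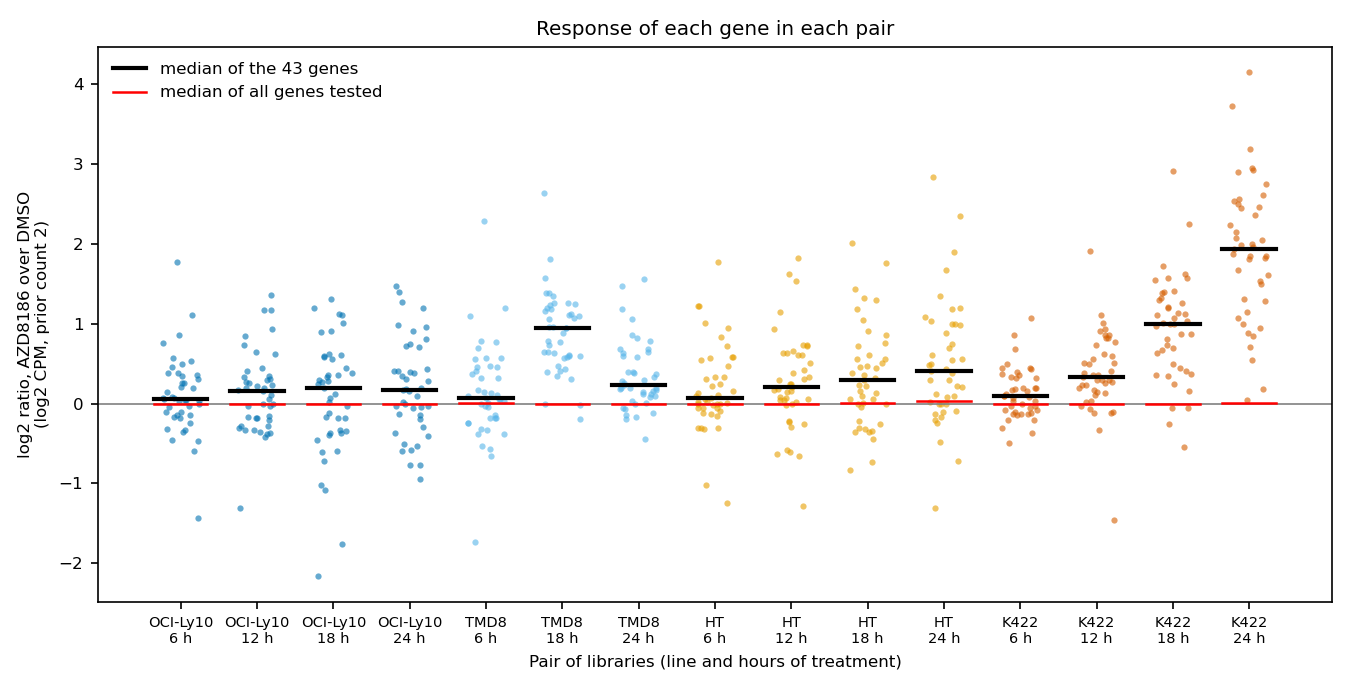
Log2 ratio of AZD8186 over DMSO for each of the 43 members with enough counts (points) in each of the 15 pairs of libraries, from log2 CPM with a prior count of 2. Black lines mark the member median and red lines the median of all genes tested, and the black line reaches 1.94 in K422 at 24 h against 0.09 in K422 at 6 h.

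With both lines of a subtype in 1 fit, 19 of 41 members tested rose in the ABC lines and 0 fell by edgeR, beside 15.3% of 11419 genes that rose and 13.8% that fell. At an unadjusted p under 0.05 there were 21 and 0, and DESeq2 called 19 and 0. RSAD2, CMPK2 and HERC5 were too low to be tested in these lines. The member median was 0.29 and the median of all genes 0.01. In the GCB lines 29 of 43 rose and 0 fell, beside 25.9% and 23.5% of 10965 genes, with 31 and 0 at an unadjusted p under 0.05 and 23 and 0 by DESeq2. There the median was 0.64 for members and 0.02 for all genes. These comparisons use the same DMSO libraries as those of the single lines. With treatment as the only term, and neither line nor time in the fit, 0 members rose in the ABC lines and 1 in the GCB lines. Without K422 at 18 h, 19 members rose in the GCB lines, and without TMD8 at 18 h, 1 fell in the ABC lines.

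On the log2(TPM + 1) scale, tested with limma, the median of all genes shifted to -0.15 in the ABC lines, -0.11 in OCI-Ly10 and -0.14 in TMD8, and to -0.25 between the DMSO levels of the ABC and GCB lines. Member changes on that scale are to be read relative to these shifts. In the ABC lines 10 members rose and 3 fell there, with a member median of 0.07. Over all genes, TMM-scaled counts gave 1750 higher and 1577 lower in the ABC lines where TPM gave 620 and 4279, and in the GCB lines 2840 and 2576 where TPM gave 2086 and 3077. For OCI-Ly10 the TPM split was 669 and 3579, for TMD8 489 and 3668 and for K422 2041 and 3111. Among the other comparisons it was 2166 and 370 for the subtype difference in response, 176 and 232 for TMD8 against OCI-Ly10, 447 and 785 for K422 against HT, 64 and 413 for late against early, 3439 and 102 for time in DMSO and 3769 and 7046 for the DMSO level of ABC against GCB lines.

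Over the 15 pairs, 7 members were above their control in each pair by CPM, namely STAT2, OAS1, OAS2, IFIT2, SAMD9, SP100 and EPSTI1, and 3.42% of all genes were. By TPM, STAT2, OAS1 and IFIT2 were above it in 15 of 15 pairs, SAMD9 in 14, OAS2 and EPSTI1 in 13 and SP100 in 11.

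Described by role, the factors that bind DNA come first. STAT2, the subunit of ISGF3 that activates transcription, stood at 2.53, 3.39, 3.03 and 4.71 TPM in the DMSO libraries of OCI-Ly10 and at 2.65, 3.92, 4.79 and 7.54 TPM under AZD8186 (6, 12, 18 and 24 h). In TMD8 it was 2.48, 4.32 and 7.37 TPM in DMSO and 5.03, 7.63 and 7.77 TPM under AZD8186 (6, 18 and 24 h). Each AZD8186 library exceeded the DMSO library of its own time, though the ranges overlapped in both ABC lines. In HT it was 1.6, 2.22, 1.94 and 2.07 TPM in DMSO against 2.97, 3.59, 3.75 and 4.5 TPM. In K422 it was 3.93, 4.9, 6.16 and 5.96 TPM in DMSO against 7.26, 6.68, 9.07 and 14.74 TPM. Neither GCB line had overlapping ranges, and STAT2 was higher than its control already at 6 h in both. The log2 fold change was 0.72 ± 0.12 (SE) in the ABC lines and 0.92 ± 0.11 in the GCB lines, with adjusted p-values of 0.000999 and 9.34e-06, and the difference between the subtypes was 0.21 ± 0.17 (adjusted p = 0.485, edgeR).

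IRF9, the DNA-binding subunit of ISGF3, rose in the GCB lines by 1.02 ± 0.13 on the log2 scale (adjusted p = 2.04e-05). Its level was 6.5, 6.44, 5.06 and 5.93 TPM in DMSO and 9.42, 9.52, 13.1 and 13.1 TPM under AZD8186 in HT, and 20.9, 24.0, 21.8 and 23.5 TPM against 28.4, 39.9, 53.8 and 63.8 TPM in K422. No AZD8186 library of either line fell within the DMSO range. OCI-Ly10 had 11.5, 10.1, 11.3 and 10.2 TPM in DMSO and 8.55, 11, 11.5 and 11.3 TPM under AZD8186, and TMD8 had 14, 18.1 and 19.0 TPM against 22.6, 22.4 and 18.3 TPM. The ABC values were mixed, with a fitted change of 0.33 ± 0.11 (adjusted p = 0.0371).

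IRF7, the factor that amplifies interferon transcription, rose in the GCB lines (0.93 ± 0.18, adjusted p = 0.000797). Its change in the ABC lines was 0.09 ± 0.15 (adjusted p = 0.704). K422 held 25.4, 24.1, 26.1 and 25 TPM in DMSO and 29.3, 33.2, 55.4 and 99.8 TPM under AZD8186, and HT held 6.38 to 6.96 TPM in DMSO and 9.9 to 12.7 TPM under AZD8186. In OCI-Ly10 it was 17.9 to 23.8 TPM in DMSO and 14.5 to 19.1 TPM under AZD8186, which overlap.

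Among the 3 RNA sensors of the RIG-I family, DDX58, which encodes RIG-I itself, was the 1 that rose in the ABC lines, by 0.73 ± 0.12 (adjusted p = 0.000616). TMD8 had 2.55, 3.09 and 4.01 TPM in DMSO and 4.15, 5.96 and 5.73 TPM under AZD8186, without overlap. OCI-Ly10 had 1.04, 1.1, 1.25 and 1.09 TPM against 1.19, 1.13, 1.62 and 1.7 TPM, which overlapped at the lower end. In K422 it went from 6.21 to 7.62 TPM in DMSO to 7.17, 8.64, 13.8 and 35 TPM. IFIH1, which encodes MDA5, and DHX58, which encodes LGP2, rose in K422 by 1.64 ± 0.30 and 1.12 ± 0.21 on the log2 scale. IFIH1 was a rare transcript there, with 0.27 to 0.36 TPM in DMSO and 0.63, 0.41, 0.72 and 2.13 TPM under AZD8186.

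The OAS family was led by OAS1, which rose in every line. In OCI-Ly10 it stood at 201, 229, 228 and 239.5 TPM in DMSO and at 279, 330.2, 379 and 381 TPM under AZD8186. TMD8 had 20.1, 29.1 and 31.4 TPM against 27.6, 55 and 43.2 TPM. Of these lines, OCI-Ly10 had no overlap and TMD8 overlapped only through its 6 h library. HT had 3.22, 2.91, 2.48 and 2.54 TPM in DMSO and 7.14, 9.91, 10.6 and 12.2 TPM under AZD8186. K422 had 58.3, 63.8, 75.9 and 69 TPM against 77.5, 125, 169 and 241 TPM. Every pair of both GCB lines was apart, and AZD8186 exceeded DMSO in 15 of 15 pairs over the 4 lines. The log2 fold change was 0.82 ± 0.09 in the ABC lines (adjusted p = 4.93e-05) and 1.44 ± 0.17 in the GCB lines (adjusted p = 1.25e-05).

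OAS2 was above its control in 15 of 15 pairs by CPM and in 13 by TPM, where the TMD8 pairs at 6 and 24 h went the other way. Its level in K422 was 19.5, 20.9, 25.7 and 25.4 TPM in DMSO and 25.4, 38.4, 72.5 and 120 TPM under AZD8186, and in HT it was 0.35, 0.39, 0.52 and 0.64 TPM against 0.89, 0.92, 1.16 and 1.25 TPM. The fitted change was 1.35 ± 0.20 in the GCB lines (adjusted p = 6.10e-05) and 0.50 ± 0.10 in the ABC lines, where it also passed the test. OASL, a family member without enzyme activity, rose in the GCB lines by 1.44 ± 0.36, whereas OAS3, at 0.05 ± 0.17, did not pass. OAS1, OAS2 and OAS3 lie side by side on chromosome 12, between 112906777 and 113011723 of GRCh38.

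In the ISG15 pathway, ISG15 rose in K422 by 0.93 ± 0.29 and in no other line. Its K422 level was 1850, 1188, 1059 and 1087 TPM in DMSO and 1771, 1341, 2278 and 5029 TPM under AZD8186. The rise was late, since the 6 h libraries hardly differed and the 24 h library was the highest value of any member in any library. HERC6, a ligase related to HERC5, and USP18, which removes ISG15 and restrains the interferon receptor, rose in K422 by 1.1 ± 0.24 and 0.94 ± 0.28. UBE2L6 passed the test in the ABC lines (0.22 ± 0.06) and in no single line.

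The IFIT genes, whose products bind foreign RNA, included the 2 members with the largest fitted fold changes in K422. IFIT2 rose by 2.55 ± 0.36 and IFIT3 by 1.85 ± 0.37 on the log2 scale in that line, followed by IFIT5 (1.48 ± 0.27) and IFIT1 (1.30 ± 0.37). IFIT2 went from 1.17, 0.98, 0.83 and 1.22 TPM in DMSO to 1.69, 3.71, 6.09 and 19.1 TPM, and IFIT3 from 6.28, 5.99, 6.05 and 5.86 TPM to 6.61, 12.5, 26.9 and 65.7 TPM. Both also rose in the ABC lines, by 1.36 ± 0.29 and 0.80 ± 0.18. IFIT2 was above its control in 15 of 15 pairs, though it stayed at 0.85 TPM or below in every OCI-Ly10 library. Of the 3 IFITM genes, IFITM1 rose in K422 (0.71 ± 0.21), and IFITM2 and IFITM3 passed the test in no line.

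MX1 and MX2, GTPases that trap viral capsids and nucleoproteins, had unlike values in the ABC lines. MX2 rose there by 0.45 ± 0.08 (adjusted p = 0.000874), with 24.1, 29.2, 29 and 26.1 TPM in DMSO and 31.2, 39.5, 36.4 and 35 TPM under AZD8186 in OCI-Ly10. The OCI-Ly10 ranges did not overlap, while TMD8 had 30.8, 49.8 and 55.8 TPM against 37.3, 51.7 and 51.4 TPM, which did. MX1 stood at 0.00 ± 0.13 in the ABC lines. Both rose in K422, where MX1 went from 180.3, 187, 274 and 261 TPM to 168, 218, 555 and 877 TPM. In HT both were at 6 counts or fewer in every library, and their response could not be read there.

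RSAD2, the antiviral enzyme viperin, and its neighbor CMPK2, a nucleotide kinase, were detected in K422 almost alone. CMPK2 held 21.2 to 29.4 TPM in the DMSO libraries of K422 and 22.8, 22.6, 41.9 and 70.9 TPM under AZD8186, and it was at 0 counts in all libraries of HT and TMD8. RSAD2 rose in K422 by 1.34 ± 0.27 and CMPK2 by 0.65 ± 0.23. Of PARP9, its partner DTX3L and PARP14, enzymes of ADP-ribosylation, DTX3L and PARP14 rose in K422, by 0.36 ± 0.13 and 0.46 ± 0.15, and PARP9 passed the test in no line.

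SAMD9 and SAMD9L, neighbors on chromosome 7 that block translation in infected cells, rose in both subtypes. SAMD9L had the second smallest p in the ABC lines (0.83 ± 0.13, adjusted p = 0.000484). In OCI-Ly10 it stood at 7.75, 6.71, 6.93 and 8.83 TPM in DMSO and 13.5, 11.3, 12.6 and 17.8 TPM under AZD8186, without overlap. In TMD8 it stood at 4.81, 4.09 and 5.96 TPM against 4.94, 7.56 and 5.92 TPM, which overlap. Its change in the GCB lines was 0.59 ± 0.22. In HT alone its mean log2 ratio was 0.08, with 2 of 4 pairs above 0 by CPM. By single line, SAMD9L rose in OCI-Ly10 and K422, and SAMD9 in TMD8 and K422. In K422, SAMD9 went from 10.7, 11.5, 14.4 and 14.9 TPM in DMSO to 17.4, 19.6, 28.9 and 44.5 TPM, all of which lay above the DMSO range. SAMD9 rose by 0.49 ± 0.09 in the ABC lines and 0.87 ± 0.17 in the GCB lines and was above its control in 15 of 15 pairs by CPM and 14 by TPM.

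Of the other restriction factors, ISG20, an exonuclease that degrades viral RNA, rose in the GCB lines (1.28 ± 0.19, adjusted p = 8.17e-05). HT had 33.7, 30.5, 33.6 and 34.0 TPM in DMSO and 47.8, 92.9, 117 and 123 TPM under AZD8186. K422 had 49.0, 43, 43.6 and 40.2 TPM against 43, 76.4, 121 and 146 TPM. HT was apart from its control at every time and K422 from 12 h on. TRIM22, SP100 and PLSCR1 rose in both subtypes, by 0.41 ± 0.10, 0.29 ± 0.05 and 0.29 ± 0.10 in the ABC lines and by 0.64 ± 0.15, 0.25 ± 0.07 and 0.47 ± 0.16 in the GCB lines. BST2 passed the test in no line and in neither subtype.

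Of the IFI genes and the remaining members, IFI6, a protein of the endoplasmic reticulum and mitochondria, rose in TMD8 (1.05 ± 0.25) and K422 (0.82 ± 0.18). It stood at 7.14, 19.6 and 32.5 TPM in DMSO and 10.1, 39.1 and 55 TPM under AZD8186 in TMD8, where each library exceeded the control of its time but the ranges overlapped. In K422 it stood at 593, 345, 345 and 351 TPM against 679, 415, 639.9 and 1045 TPM, which overlapped through the high 6 h control. IFI27 rose in TMD8 (0.82 ± 0.23), and IFI35, IFI44 and IFI44L rose in K422 (0.84 ± 0.23, 0.58 ± 0.14 and 1.38 ± 0.31). EPSTI1 and the pro-apoptotic XAF1 rose in K422 by 0.92 ± 0.21 and 1.30 ± 0.35, and EPSTI1 also rose in TMD8 (0.75 ± 0.25). LGALS3BP rose in TMD8, from 1.04, 1.13 and 2.29 TPM in DMSO to 1.23, 5.96 and 5.52 TPM.

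**Figure D4:**
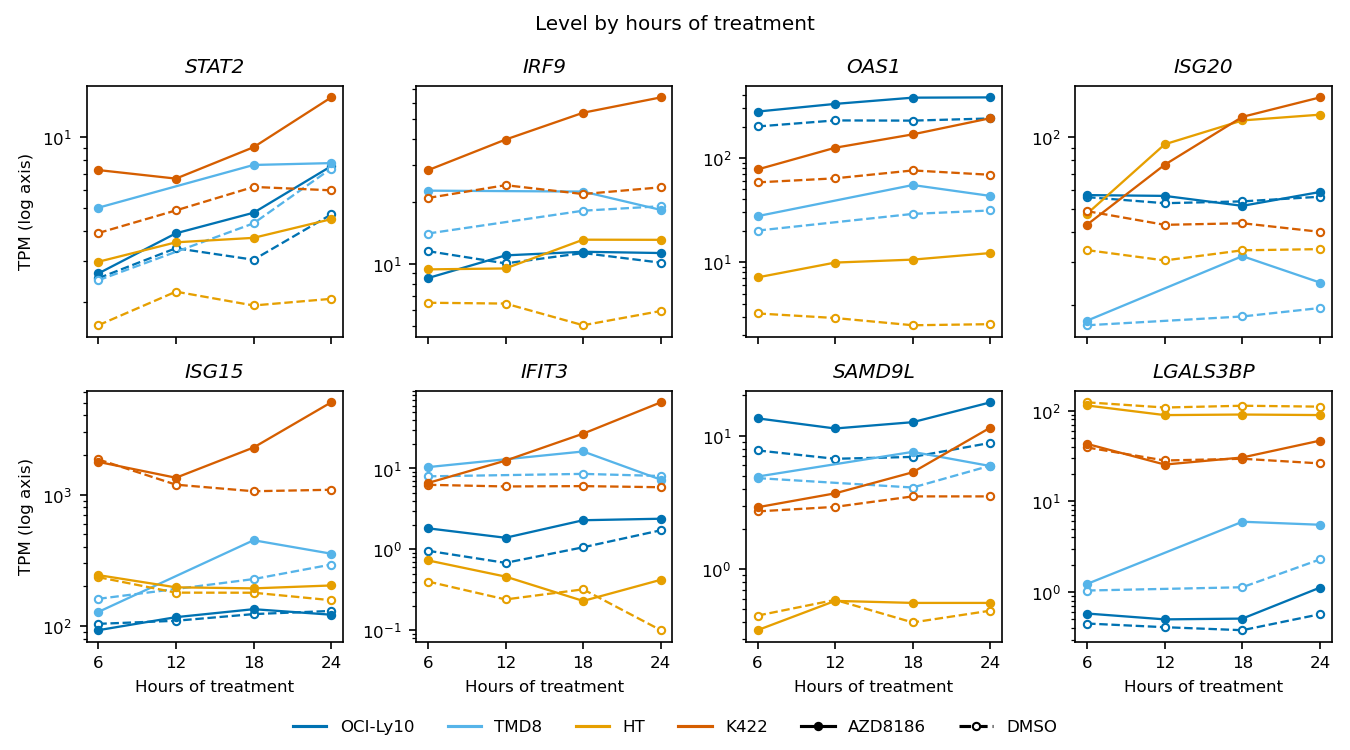
TPM on a log axis against hours of treatment for 8 of the named genes, with 1 library per point, filled points and solid lines for AZD8186, open points and dashed lines for DMSO, and 1 color per line. OAS1 under AZD8186 lies above DMSO at every time in all 4 lines. ISG15 and IFIT3 separate most from DMSO in K422 at 24 h, at 5029 and 65.7 TPM. IFIT3 also lies above DMSO at every time in OCI-Ly10, and both genes do so in TMD8 at 18 h.

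The response itself was compared between the subtypes in 1 fit of all 30 libraries. Of 43 members, 5 had a higher response in the GCB lines and 1 a lower one, where 6.18% of all genes had a higher and 4.94% a lower response. The unadjusted counts were 13 and 1, and DESeq2 gave 10 and 1. LGALS3BP had the lower response in the GCB lines, with a difference of -1.37 ± 0.31 (adjusted p = 0.00752), and its level in those lines was 25.4 TPM or more in every library. IRF9 (0.70 ± 0.20, adjusted p = 0.0269), HERC6 (1.02 ± 0.30, adjusted p = 0.0304) and OAS2 (0.84 ± 0.25, adjusted p = 0.0342) rose more in the GCB lines, as did IRF7 and ISG20. HERC6 stood at 4.44, 4.11, 4.31 and 3.54 TPM in DMSO and 5.74, 5.01, 9.83 and 15.6 TPM under AZD8186 in K422, while in OCI-Ly10 it stood at 3.05, 4.43, 5.35 and 6.01 TPM against 3.58, 4.02, 4.12 and 4.3 TPM. The ranges were apart in K422 and overlapped in OCI-Ly10. HERC6 was at 4 counts or fewer in every HT library, so that its difference came from K422.

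The 5 depended on which libraries entered. With K422 left out altogether, 2 members had a higher response in HT than in the ABC lines and 1 a lower one. Leaving out single pairs gave 0 without K422 at 18 h, 1 without K422 at 24 h or OCI-Ly10 at 6 h, 2 without OCI-Ly10 at 18 or 24 h, 3 without HT at 12 or 24 h, OCI-Ly10 at 12 h or TMD8 at 6 h, 9 without TMD8 at 18 h and 12 without K422 at 6 h. The number with a lower response was 1 each time.

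Within the GCB subtype, 3 of 43 members had a higher response in K422 than in HT and 0 a lower one by edgeR (10 and 1 at an unadjusted p under 0.05, 8 and 0 by DESeq2), beside 4.76% and 5.83% of all genes. IFIT5 differed by 1.61 ± 0.35 (adjusted p = 0.00790), IFIH1 by 1.64 ± 0.37 (adjusted p = 0.01) and SP100 by 0.33 ± 0.10 (adjusted p = 0.0465), and SAMD9 was just outside the threshold (0.73 ± 0.23, adjusted p = 0.0503). IFIT5 went from 0.81, 0.88, 1.13 and 1.3 TPM in DMSO to 0.75, 1.57, 3.52 and 6.6 TPM in K422, and in HT from 2.34 to 2.94 TPM to 2.23 to 2.49 TPM. IFIT5 and IFIH1 were also 2 of the 3 members whose DMSO level was lower in K422 than in HT, and the same DMSO libraries enter both comparisons. Without K422 at 6 h the number was 9, and without K422 at 24 h 1 member had a lower response. Most members that rose in K422 and not in HT thus had a difference between these lines that did not pass the test.

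Between the ABC lines, 0 members differed in response by edgeR in either direction, with 3 and 0 at an unadjusted p under 0.05 and 0 by DESeq2, beside 0.589% and 0.310% of all genes. The smallest p-values belonged to BST2 (0.52 ± 0.21, adjusted p = 0.332), DTX3L (0.45 ± 0.19, adjusted p = 0.348), PARP9 (0.43 ± 0.19, adjusted p = 0.377) and IFI6 (0.80 ± 0.46, adjusted p = 0.561), all in the direction of TMD8. By TPM, BST2 was below its control in 4 of 4 OCI-Ly10 pairs, and by CPM in all but the 24 h pair, with 76.4, 102, 102 and 99.4 TPM in DMSO against 72.4, 79.8, 67.3 and 83.1 TPM. PARP9 was below its control in 4 of 4 by either scale, with 8.86, 8.65, 10.4 and 11 TPM against 7.16, 6.02, 6.83 and 6.79 TPM, and neither passed the test in that line.

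Time of treatment was examined by comparing the response at 18 to 24 h with that at 6 to 12 h. Over the 4 lines, 10 of 43 members responded more strongly late and 0 less by edgeR (32 and 0 at an unadjusted p under 0.05, 9 and 0 by DESeq2), where 1.31% of all genes were stronger and 0.829% weaker. The median difference was 0.64 for members and 0.02 for all genes. TRIM22 (0.65 ± 0.13, adjusted p = 0.0275), IFI35 (0.88 ± 0.19, adjusted p = 0.0294), OAS1 (0.62 ± 0.14, adjusted p = 0.0310) and EPSTI1 (0.83 ± 0.19, adjusted p = 0.0331) had the smallest p. TRIM22 in K422 stood at 19.6, 17.2, 21.6 and 22.2 TPM in DMSO and 20.9, 20.5, 35 and 57.5 TPM under AZD8186, and IFI35 at 31.4, 25.7, 28.2 and 28.2 TPM against 28.6, 32.2, 55.1 and 95.7 TPM. EPSTI1 stood at 5.89, 5.35, 6.55 and 6.27 TPM against 7.45, 6.9, 12.0 and 19.6 TPM. The 18 and 24 h libraries of all 3 genes lay above every control, while the 6 and 12 h libraries lay within or near the control range.

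These 10 rested on few libraries. The number was 0 without the pairing of libraries as a block, without K422, or without 1 pair, either K422 at 6 h, OCI-Ly10 at 24 h or TMD8 at 18 h. It was 1 without K422 at 24 h, 3 without K422 at 12 or 18 h, 5 without OCI-Ly10 at 6 h or TMD8 at 6 h and 6 without HT at 24 h. In a fit with a separate late term for each line, added after the values were seen, 33 of 43 members responded more strongly late in K422 and 0 less (38 and 0 unadjusted, 25 and 0 by DESeq2), beside 3.47% and 2.38% of all genes. IFI6 (1.18 ± 0.17), ISG15 (1.78 ± 0.26) and MX1 (1.48 ± 0.22) led this list. The K422 count was 6 without the 6 h pair and 4 without the 24 h pair, each of which leaves 1 pair on one side.

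In the same fit, the early response of TMD8 is its 6 h pair alone, which is assumed to vary like the pairs of the other lines. TMD8 had 3 members with a stronger late response, IFI44L, ISG15 and OAS3, beside 6.01% of all genes stronger and 3.45% weaker, and 0 weaker (12 and 0 unadjusted, 2 and 0 by DESeq2). OCI-Ly10 and HT had 0 in either direction by edgeR, with 1 and 1 unadjusted in OCI-Ly10, 4 and 0 in HT, and 0 by DESeq2 in both. Of all genes, 0.0232% were stronger and 0.0465% weaker late in OCI-Ly10, and 0.00775% each way in HT. The difference in late response between K422 and the mean of the other lines passed the test for 1 member, BST2, with 24 higher and 0 lower at an unadjusted p under 0.05 and 1 and 0 by DESeq2, beside 0.372% higher and 0.325% lower of all genes. K422 was not compared with each other line in this respect.

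Transcripts of interferons themselves were nearly absent. Of 21 genes for type I and III interferons, 18 had no count in any of the 30 libraries, and the highest value was 0.73 TPM, or 7 counts, for IFNB1 in K422 at 12 h of AZD8186. IFNG reached 2 counts at most. A transcript made briefly or by few cells was not detectable at this depth if it stayed below these values. IFNB1 had 1, 7, 3 and 4 counts under AZD8186 and 1, 0, 1 and 0 in DMSO in K422, and these counts were too low to be tested.

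Of the 57 genes on the wider interferon pathway list, 31 were tested in the ABC lines, where 10 rose and 5 fell, and 29 in the GCB lines, where 10 rose and 8 fell. Of all genes, 15.3% rose and 13.8% fell in the ABC lines and 25.9% and 23.5% in the GCB lines. JAK1 rose in the GCB lines (0.49 ± 0.07, adjusted p = 4.74e-05) and fell in the ABC lines (-0.33 ± 0.08, adjusted p = 0.00738). PTPN6, the phosphatase SHP-1, which dephosphorylates receptors and their kinases, fell in both (-1.21 ± 0.17 and -1.49 ± 0.17). In K422 PTPN6 stood at 325, 304, 309.6 and 289 TPM in DMSO and 65.8, 63.0, 80.0 and 88.2 TPM under AZD8186. The endosomal RNA sensor TLR7 (1.01 ± 0.13) and IRF8 (1.05 ± 0.15) had the smallest p among the genes that rose in the ABC lines. IRF8 also rose in the GCB lines (0.70 ± 0.10), and TLR7 in K422 (2.39 ± 0.33). TRAF3, an adaptor of the sensors, fell in the GCB lines (-0.46 ± 0.06) and rose in the ABC lines (0.23 ± 0.07).

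Genes that respond mainly to interferon gamma were set beside the members. Of 15 such genes, 0 of 11 tested rose and 1 fell in the ABC lines, and 2 of 7 rose and 1 fell in the GCB lines, where 25.9% of all genes rose and 23.5% fell. The shares of all genes in the ABC lines were 15.3% and 13.8%. GBP2, a guanylate-binding protein, fell in the ABC lines (-0.74 ± 0.21, adjusted p = 0.0160), and GBP4 and CXCL9 followed it by p without passing the test. PSMB8 and PSMB9 were not tested in the fit of both ABC lines. In TMD8 alone, 2 of 14 tested rose, PSMB8 (0.42 ± 0.08) and PSMB9 (0.39 ± 0.10), and 2 fell, GBP1 and GBP2. Of all genes, 9.26% rose and 7.63% fell in TMD8. In the GCB lines the antigen-presentation genes NLRC5 (0.32 ± 0.10) and PSMB10 (0.16 ± 0.06) rose and CIITA fell (-0.31 ± 0.10).

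The responses of members with and without the ISRE letters in their promoter window overlapped, and their difference was not tested. In K422 the median log2 fold change was 0.82 for 21 tested members with the letters and 0.90 for 13 without, and 16 and 11 of them rose. In the GCB lines together, 12 of 21 with the letters rose and 10 of 13 without, with medians of 0.61 and 0.84. In the ABC lines the medians were 0.29 and 0.33. Among the other genes tested in K422, 21.2% of 274 with the letters rose and 23.0% of 9632 without. STAT2, OAS1 and DDX58 were among the members without a match, and the windows reach only 250 bases upstream.

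**Figure D5:**
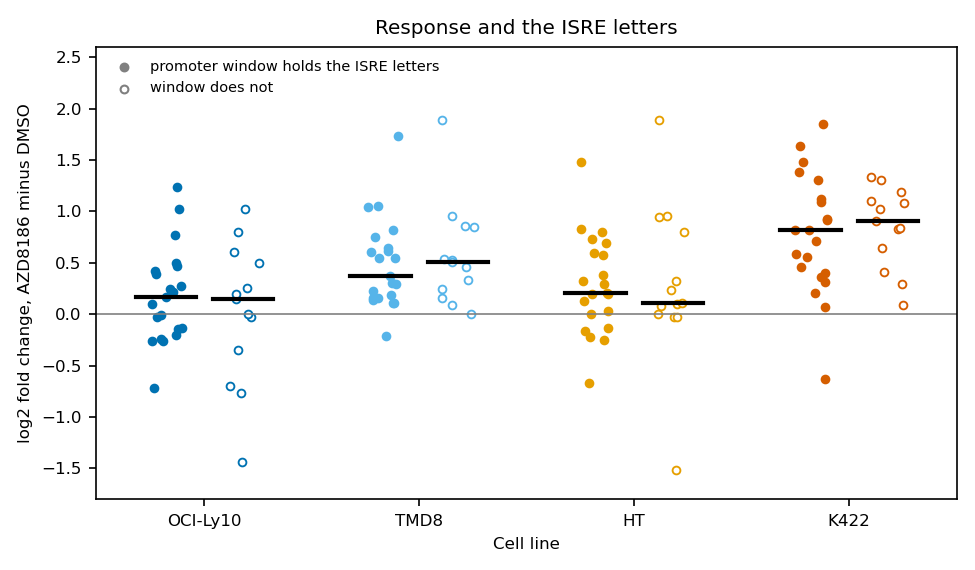
Fitted log2 fold change of AZD8186 over DMSO in each line for the members with a promoter window, filled points for windows that hold the ISRE letters and open points for windows that do not, with black lines at the medians. The medians in K422 are 0.82 and 0.90, and the points of both kinds overlap in all lines.

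Within K422, members that were low in DMSO tended to have the larger fold changes. Over 43 members, the log2 fold change and log2(mean DMSO TPM + 1) had a Pearson's r of -0.39 and a Spearman's rho of -0.51, given as a description because the same DMSO libraries enter both and genes are not independent. In absolute terms the abundant members carried most of the added RNA, and the summed TPM of the 44 genes went from 3357 in DMSO to 11180 under AZD8186 at 24 h, a ratio of 3.33. At 6, 12 and 18 h the ratio was 0.992, 1.15 and 1.82. In HT the same sum stayed between 793 and 960.0 TPM in all libraries.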

How the data were processed

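RNA of 4 DLBCL lines treated with AZD8186 or DMSO was sequenced in 30 libraries. Per the submitters' processing notes and the study's methods, reads were aligned with HISAT2 to human transcripts (build GRCh38.p12) and summed per gene with RSEM. Each deposited table held RSEM's expected counts and TPM beside FPKM, and the FPKM values made by the authors were not used. Whether counting used strand is not given in the sources used here. No per-sample column was left unmapped. Groups, times and pairs (same line and time) came from the sample labels.

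The deposited expected counts, of which 23.65% to 29.25% per library were not whole, were rounded to whole numbers and tested with edgeR 4.0.16 (R 4.3.3, TMM scaling, filterByExpr, quasi-likelihood F test, Benjamini-Hochberg adjustment over all genes tested, threshold 0.05). The ABC and GCB comparisons were fitted on the libraries of that subtype with line and time as terms. The responses of single lines, their differences and the late minus early response were fitted on all 30 libraries with the pair as a block. Same-line, same-time libraries were taken as pairs from the labels. As a check, the deviation of each library from the mean of its line and treatment was correlated. By this, 14 of 15 AZD8186 libraries correlated best with their own DMSO library, though weakly (0.05 to 0.29). The exception was K422 at 24 h (correlation -0.0197). DMSO levels were fitted on the 15 DMSO libraries. The SE of a fitted change is its absolute value divided by the square root of the F statistic. It can be too small where counts are near 0. Alternatives were DESeq2 1.42.0 and its size factors, limma 3.58.1 on log2(TPM + 1), other filters, the block or its absence and leaving out 1 pair at a time. A fold change on the log2(TPM + 1) scale understates the change of low genes. Log2 ratios within a pair used CPM with a prior count of 2. Simulated counts with known changes were used to test the edgeR fits of the ABC, GCB and K422 responses and of the subtype difference. They were also used for late minus early over all lines and for the DMSO level of K422 against HT. Other fits, among them the late term per line, time in DMSO, DESeq2 and limma, were not tested in this way. The simulated counts held no differences shared by the libraries of a pair. Levels between genes are compared in TPM only. Gene coordinates are those of GENCODE 29 on GRCh38. Figures used Python 3.11.15.

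The members and the gene lists were chosen with earlier results of these data known. Genes named with p-values are those with the smallest p of each comparison by a written rule, together with STAT2, IRF9 and IRF7, and other members are named by role. Results for some items are not reported here.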

Additional observations from a re-analysis of the deposited data

Results flagged for a closer look

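Of 26 sets of 4 to 10 values tested with Dixon's criterion, 5 held an extreme value, where chance gives about 1 in 20 among independent replicates. The values of a set came from different times or lines, and sets shared libraries, so that rate is only a rough guide. Among the 8 GCB pairs, the pair of K422 at 24 h stood apart for SAMD9L, with a log2 ratio of 1.94, and for DDX58, with 2.56. Among the 7 ABC pairs, OCI-Ly10 at 6 h stood apart for IRF9, with a log2 ratio of -0.46, and TMD8 at 18 h for the median log2 ratio of the members, with 0.949. Among the 4 DMSO libraries of K422, the 6 h library stood apart in the summed TPM of the members, with 4372 TPM.

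The response differed between the subtypes for 6 of 43 members by edgeR. It was higher in the GCB lines for 5 and lower for 1, beside 6.18% and 4.94% of all genes. The log2 difference, GCB minus ABC, was 1.02 for HERC6 (adjusted p = 0.0304), 0.83 for IRF7 (adjusted p = 0.0463), 0.70 for IRF9 (adjusted p = 0.0269), 0.91 for ISG20 (adjusted p = 0.0397), 0.84 for OAS2 (adjusted p = 0.0342) and -1.37 for LGALS3BP (adjusted p = 0.00752). Between K422 and HT it differed by 1.64 for IFIH1 (adjusted p = 0.01), by 1.61 for IFIT5 (adjusted p = 0.00790) and by 0.33 for SP100 (adjusted p = 0.0465). Of all genes, 4.76% had a higher and 5.83% a lower response in K422 than in HT.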

How the results depend on the processing

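With treatment as the only term, 0 members rose in the ABC lines and 1 in the GCB lines, against 19 and 29. With DESeq2 the number with a higher response was 10 for GCB against ABC lines and 8 for K422 against HT, and 1 member fell with time in DMSO. On log2(TPM + 1) with limma, 10 rose and 3 fell in the ABC lines, 17 rose in the GCB lines, 3 rose and 3 fell in OCI-Ly10 and 4 rose in TMD8. That scale gave 0 members with a lower GCB than ABC response, 6 higher in K422 than in HT, 1 stronger late, 15 that rose with time in DMSO and 16 with a lower DMSO level in the ABC lines. Time in DMSO as 18 to 24 h against 6 to 12 h gave 2. Without the replicate block, 0 members were stronger late. With or without the block, no other count moved by over 1.5 times, among them 28 with it in the GCB lines.

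Some alternatives were chosen after seeing the data. Without K422, 2 members had a higher GCB response and 0 a stronger late one. Without K422 at 18 and 24 h, 16 rose and 1 fell in the GCB lines, 7 rose in K422, 19 in TMD8, 11 rose and 3 fell in OCI-Ly10, and 10 rose and 1 fell in HT. Then 1 member was higher in TMD8 than in OCI-Ly10, and 0 were higher and 1 lower in K422 than in HT. The causes were not tested.

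Leaving out 1 pair at a time gave 14 to 20 members that rose and 0 to 1 that fell in the ABC lines, 19 to 30 that rose in the GCB lines, 2 to 11 that rose and 0 to 3 that fell in OCI-Ly10, 1 to 14 that rose in TMD8, 4 to 8 in HT and 22 to 37 in K422. It gave 0 to 12 with a higher GCB response, 2 to 9 higher and 0 to 1 lower in K422 than in HT, 0 to 15 stronger late and 4 to 39 stronger late within K422. Leaving out 1 DMSO library gave 2 to 7 that rose and 0 to 3 that fell with time in DMSO. Of 621 alternatives to the 33 single-gene results, 0 reversed the direction and 79 lost the call. Counts near 0 limit what could be seen for MX1, MX2 and HERC6 in HT, and for RSAD2 and CMPK2 in HT, OCI-Ly10 and TMD8.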
